A study of Drosophila melanogaster with 4 samples.

Results

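The genes that code for structural proteins of the insect cuticle were followed in whole *Drosophila melanogaster* larvae mutant for *ash2*. Probes were taken as members when they had exactly 1 annotated gene and its current symbol belonged to the *Lcp*, *Ccp84A*, *Cpr*, *Twdl* or *Cpap* series, or was *Acp1*, *Acp65Aa*, *Edg78E*, *Edg84A*, *Edg91* or *Pcp*. This gave 115 probes of 114 genes, among 11764 genes with a probe, and no *Cpap* gene was among them. *ash2* is a trithorax group gene, and proteins of this group act on chromatin to keep genes in an active state. The question was which genes change when it is mutated. The larvae labelled w1118;+;ash2I1 were compared on 4 two-colour arrays with a single pool of w1118;+;+ larvae of the isogenic reference line. Whole wandering larvae of the last instar were used for both genotypes, chosen early in that stage by the blue dye that their food had left in the gut. The mutant chromosome had been kept over the TM6c balancer and larvae without its *Tb* marker were picked. Chromosomes X, Y and 2 came from the reference line, but not chromosome 3, which carries the mutation. Mutant RNA came from 2 extractions with 2 arrays each, so n = 2. The pool is a single control, and variation among wild-type larvae was therefore not measured.

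The cuticle is the layer outside the epidermis, made of chitin fibres in a matrix of proteins, and it is laid down anew at each moult. Most of the proteins named Cpr, Lcp, Ccp84A, Acp, Edg and Pcp share the Rebers and Riddiford domain, which binds chitin, whereas the Tweedle (*Twdl*) proteins are a separate family that affects body shape. Many of these genes lie side by side in groups on the chromosomes, and which of them are read differs between stages and body regions, under the control of the moulting hormone ecdysone. The *Lcp* genes were named for larval cuticle, *Pcp* and the *Edg* genes for pupal cuticle or the response to ecdysone, and the *Acp* genes for adult cuticle, while the *Cpr* genes were named from their domain and their place on the chromosome.

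A value here is a log2 ratio, likely of mutant to wild-type signal, because on each array Cy5 marked the mutant RNA and Cy3 the pool. Neither the direction nor the base of the logarithm is written in the table, and base 2 was taken from the convention of limma, which the study used. Were the ratio the other way round, each fall given here would be a rise of the same size and each rise a fall. No dye swap was made, so dye and genotype cannot be told apart. The arrays held from 1108 to 3513 values of 16416 probes, because spots that failed quality thresholds had been removed. The number of arrays limits the precision.

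Most cuticle protein genes had no value. Of the 114, 25 (21.9%) had a value on at least 1 array, against 29.8% of all genes, and 10 (8.77%) had one in both extractions, against 14.1% of all genes. Arrays 1 to 4 held values for 19, 9, 14 and 6 of them. Thus the share measured was lower than over all genes on arrays 1, 2 and 3 and higher on array 4, where 5.26% of cuticle protein genes and 3.21% of all genes had a value. The families differed in this respect. Values were given for 6 of 9 *Lcp* genes, 17 of 67 *Cpr* genes, 1 of 6 *Ccp84A* genes, 1 of the 6 other named genes and 0 of 26 *Twdl* genes. By chromosome arm, 13 of 43 members on 3L and 8 of 23 on 2R had a value, against 2 of 33 on 3R, where many *Twdl* genes lie, 1 of 7 on 2L and 1 of 8 on X. Why the remaining 89 genes had no value was not tested, and their state in the mutant is unknown here. They include *Lcp65Ad*, *Lcp65Ae* and *Lcp65Ag2* of the larval group, *Ccp84Ab* and *Ccp84Ag* near the Antennapedia complex, *TwdlT* and *TwdlD*, the ecdysone-dependent genes *Edg78E*, *Edg84A* and *Edg91*, and the adult cuticle genes *Acp1* and *Acp65Aa*. The larval cuticle genes *Lcp1* to *Lcp4* are not analysed here.

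**Figure D1:**
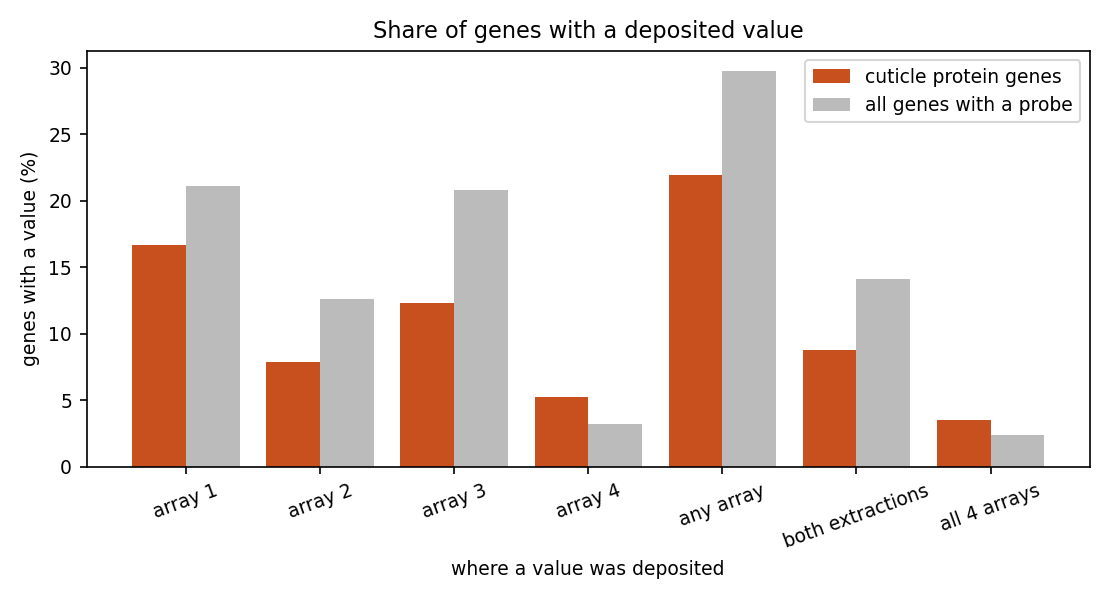
Bars give the percentage of cuticle protein genes (114) and of all genes with a probe (11764) that had a deposited value, for each array, for any array, for both extractions and for all 4 arrays. The cuticle protein genes were measured less often than all genes on arrays 1 to 3 and more often on array 4.

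Among the 10 tested genes, 3 fell in the mutant, none rose and 7 did not pass. A gene was called when limma gave an adjusted p under 0.05 and the change was at least 2-fold. Of the 1660 tested genes in the table, 2.83% were called lower, 3.73% higher and 6.57% in either direction. The median log2 ratio of the 10 genes was -0.39, beside 0.01 over all tested genes. It was -1.06 without array 1 (7 genes), -0.78 without array 2 (9 genes) and -0.91 without array 3 (6 genes), as fewer genes could then be tested. In 6 of the 10 both extractions were below 0, as in 37.7% of all tested genes, and in 3 both were above 0, as in 40.1% of all. A log2 ratio of -1 or lower was found for 4 of the 10 and for 3.55% of all tested genes. With bulk RNA of whole larvae, fewer cuticle-forming cells and less of an RNA per cell cannot be told apart.

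The strongest fall was that of *Cpr49Ac*, a gene of the chitin-binding Cpr family on arm 2R. Its log2 ratios on arrays 1 to 4 were -2.12, -1.87, -2.76 and -1.77. All 4 arrays lay well below 0, and the extractions overlapped. The gene fell 4.38-fold, with a mean log2 ratio of -2.13 ± 0.14 (SE, n = 2, adjusted p = 0.0214), and 8 of the 1660 tested genes had a lower ratio.

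*Pcp*, which codes for a pupal cuticle protein and lies inside an intron of the purine synthesis gene *Gart* on arm 2L, had log2 ratios of -2.05, -1.40, -1.66 and -0.63. Each array was below 0, and array 4 gave the value nearest to it. The gene fell 2.71-fold, with a mean of -1.44 ± 0.19 (SE, n = 2, adjusted p = 0.0353). The host gene *Gart* had values in extraction 1 only, -0.24 and -0.12. On those same arrays *Pcp* was the lower of the pair both times.

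*Lcp9*, a larval cuticle protein gene on arm 2R, had log2 ratios of -1.84, -1.21 and -0.91 on arrays 1 to 3 and none on array 4. All 3 were below 0, with the 2 arrays of extraction 1 lower than that of extraction 2. It fell 2.32-fold, with a mean of -1.21 ± 0.20 (SE, n = 2, adjusted p = 0.0434), close to the threshold.

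These calls depended on which arrays entered. Without array 2 *Cpr49Ac* alone was called, while *Pcp* had an adjusted p = 0.0605 and *Lcp9* one of 0.0723. Without array 3 none of the 6 members that could then be tested was called, nor was any of 358 genes, and 2 of the 6 members and 67 of the genes had an unadjusted p under 0.05. The log2 ratios themselves moved less, between -2.38 and -1.88 for *Cpr49Ac* and between -1.70 and -1.18 for *Pcp* when each array was left out. *Lcp9* lay between -1.37 and -1.06 without array 1, 2 or 4. Without array 3 it had no value in extraction 2 and could not be fitted.

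*Cpr78E*, a Cpr gene on arm 3L, had the second lowest mean but did not pass. Its log2 ratios were -3.09, -1.72, -1.50 and -0.37, all below 0 and wider apart than those of any other tested cuticle gene. The mean was -1.67 ± 0.38 (SE, n = 2, adjusted p = 0.0662), which is 3.18-fold lower, with a 95% interval from -2.72 to -0.62. Extraction 1 averaged -2.40 and extraction 2 -0.94, and 99.1% of tested genes had a smaller difference between the extractions. Without array 1 its adjusted p was 0.00985 and without array 4 it was 0.0390, so in either case it was called.

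*Cpr67Fa1*, also on 3L, had log2 ratios of -1.05, -0.68, -0.60 and -0.42. They were of 1 sign and small, and the mean of -0.69 ± 0.15 (SE, n = 2, adjusted p = 0.0650) stayed under a 2-fold change. Its neighbour *Cpr67Fa2*, with no annotated gene between them, was measured on array 1 only, at -1.68. Their names mark them as tandem copies, so the probe of either may also read the other, and their sequences were not compared.

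**Figure D2:**
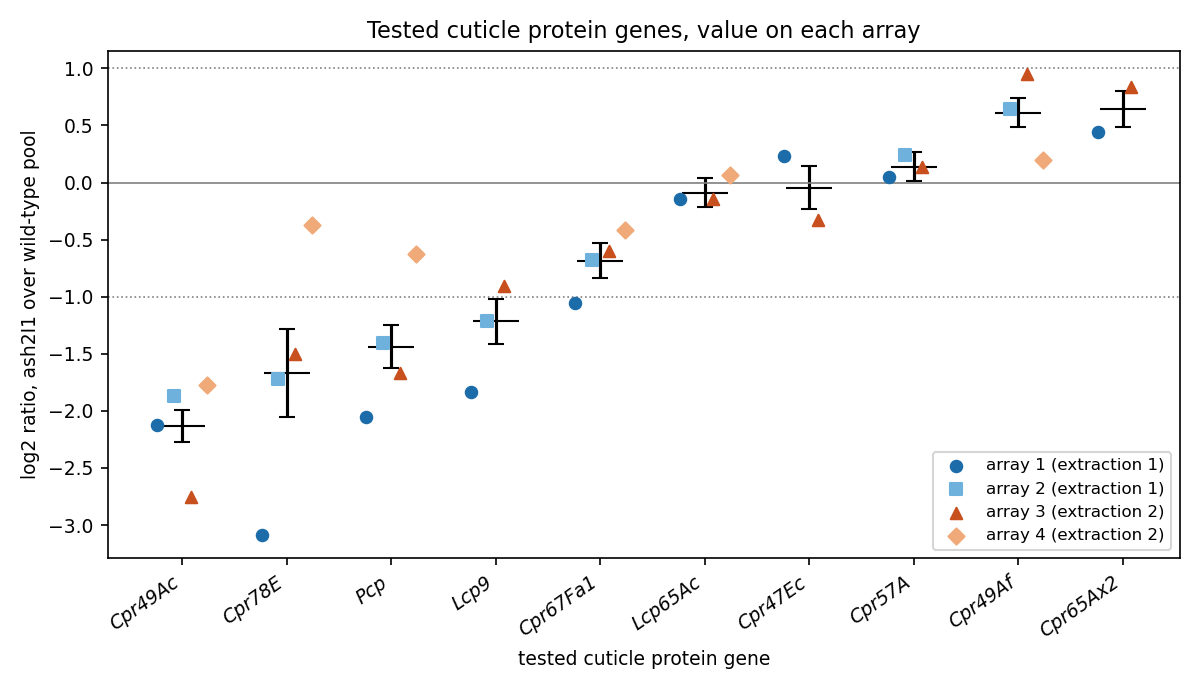
Points give the log2 ratio of ash2I1 larvae over the wild-type pool on each array for the 10 tested cuticle protein genes, ordered by their mean. Black bars give the mean of the 2 extractions with the SE of limma, and dotted lines mark a 2-fold change. Array 4 lies nearest to 0 for each gene it measured, and *Cpr78E* has the widest spread, from -3.09 to -0.37.

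The other 5 tested genes lay near 0 or above it. *Cpr65Ax2*, of the 65A group on 3L, had the highest ratio, with 0.44 on array 1 and 0.84 on array 3. Its mean of 0.64 ± 0.16 (SE, n = 2, adjusted p = 0.0794) did not pass, with a 95% interval from 0.21 to 1.08. *Cpr65Ax2* was named as 1 of a pair of tandem copies, so its probe may read both.

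*Cpr49Af* is separated from *Cpr49Ac* by 4 annotated protein-coding genes, and the neighbours stood on opposite sides of 0. *Cpr49Af* had log2 ratios of 0.64, 0.95 and 0.20 on arrays 2, 3 and 4. On each of these arrays it was above *Cpr49Ac*. Its mean was 0.61 ± 0.13 (SE, n = 2, adjusted p = 0.0584) and the change was under 2-fold. The other 6 genes of the 49A group with a probe had no value.

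*Cpr57A*, on 2R, had 0.05, 0.24 and 0.14 on arrays 1 to 3, with a mean of 0.14 ± 0.13 and a 95% interval from -0.21 to 0.49. *Lcp65Ac*, a larval cuticle gene of the 65A group, had -0.14, -0.14 and 0.07 on arrays 1, 3 and 4, with a mean of -0.09 ± 0.13 and an interval from -0.44 to 0.26. *Cpr47Ec* had 0.24 on array 1 and -0.32 on array 3, so its extractions differed in sign, with a mean of -0.04 ± 0.19 and an interval from -0.56 to 0.47. These 3 intervals leave out a 2-fold change in either direction, and their width rests in part on a variance shared over all tested genes.

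Over all values the arrays had nearly equal median absolute deviations, of 0.42, 0.41, 0.42 and 0.43. The SD over all values was 0.79, 0.62, 0.65 and 0.61. Among genes measured on all 4 arrays the spread differed more, and this touched the cuticle genes. Over the 278 genes on all 4 arrays, the SD was 1.13, 0.75, 0.93 and 0.58 on arrays 1 to 4. All 6 cuticle genes with a value on array 4 had their value nearest to 0 there. Of the 4 on all arrays, 3 were farthest from 0 on array 1, and *Cpr49Ac* was farthest on array 3. Among the 49 genes on all arrays with a mean log2 ratio of at least 1 in size, 36 were nearest to 0 on array 4 and 35 farthest on array 1, so the cuticle genes shared this with the other strongly changed genes. Between extractions, the median difference was 0.38 for the cuticle genes and 0.23 for all tested genes. *Pcp*, *Lcp9*, *Cpr78E* and *Cpr67Fa1* were lower in extraction 1, and *Cpr49Ac* was lower in extraction 2. The sign varied in few of them, and 8 of the 10 cuticle genes had the same sign on each array that measured them, as did 71.1% of all tested genes.

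**Figure D3:**
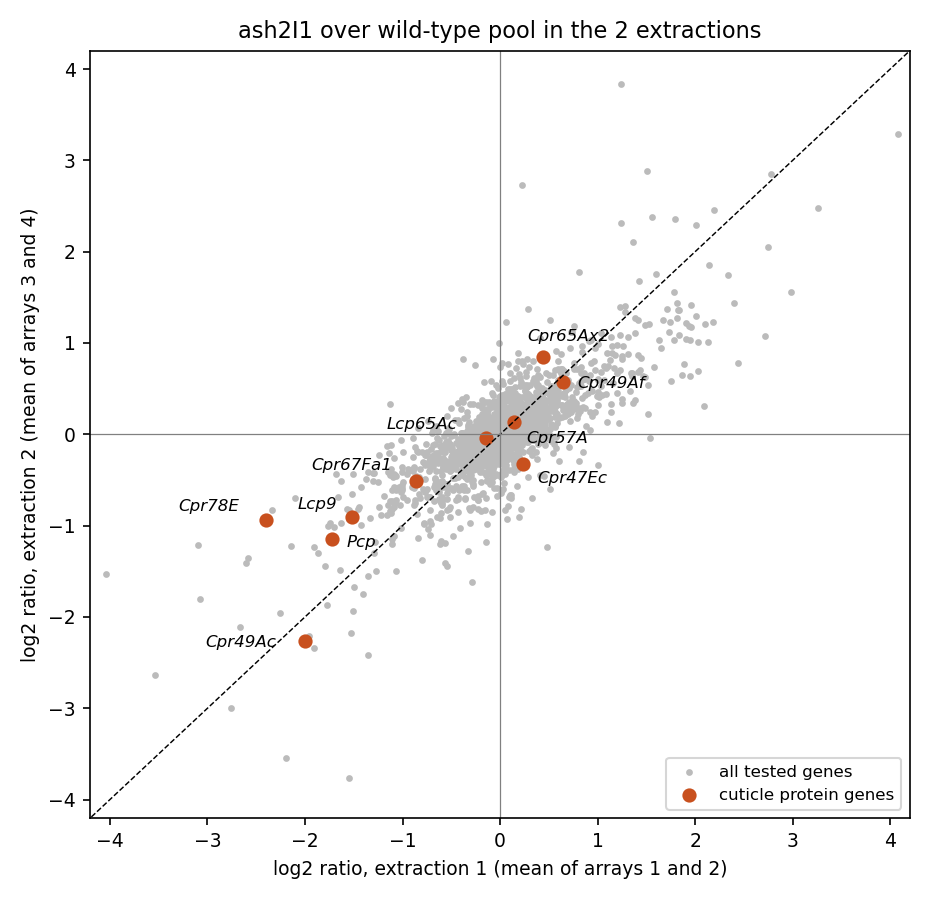
Each point is a gene, with the log2 ratio of extraction 1 on the x axis and that of extraction 2 on the y axis, grey for the 1660 tested genes and orange for the 10 cuticle protein genes. The dashed line marks equal values, and 3 genes lie outside the axes. *Cpr49Ac*, *Pcp* and *Lcp9* lie in the lower left with both extractions below -0.9, and *Cpr78E* lies far from the dashed line.

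A further 15 cuticle protein genes had values in 1 extraction only, 14 of them on 1 array, and no test can be given. Of these, 8 were below 0 and 7 above, with a median of -0.04, and 13 lay within 0.6 of 0. The exceptions were *Cpr67Fa2*, given above, and *Cpr47Eg*, with -1.03 on array 3. The genes *Cpr12A*, on the X chromosome, and *Cpr67B* had -0.43 on array 3 and -0.46 on array 2. *Ccp84Aa*, the sole measured gene of the *Ccp84A* group, was close to 0 with -0.04 on array 1, and so was *Cpr76Bd* with -0.04. *Cpr97Eb* had 0.08 on array 3, *Cpr50Cb* 0.16 and *Cpr47Eb* 0.36 on array 1. *Lcp65Ag1* was the only one with 2 values, and its arrays differed in sign, with 0.24 on array 1 and -0.55 on array 2.

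**Figure D4:**
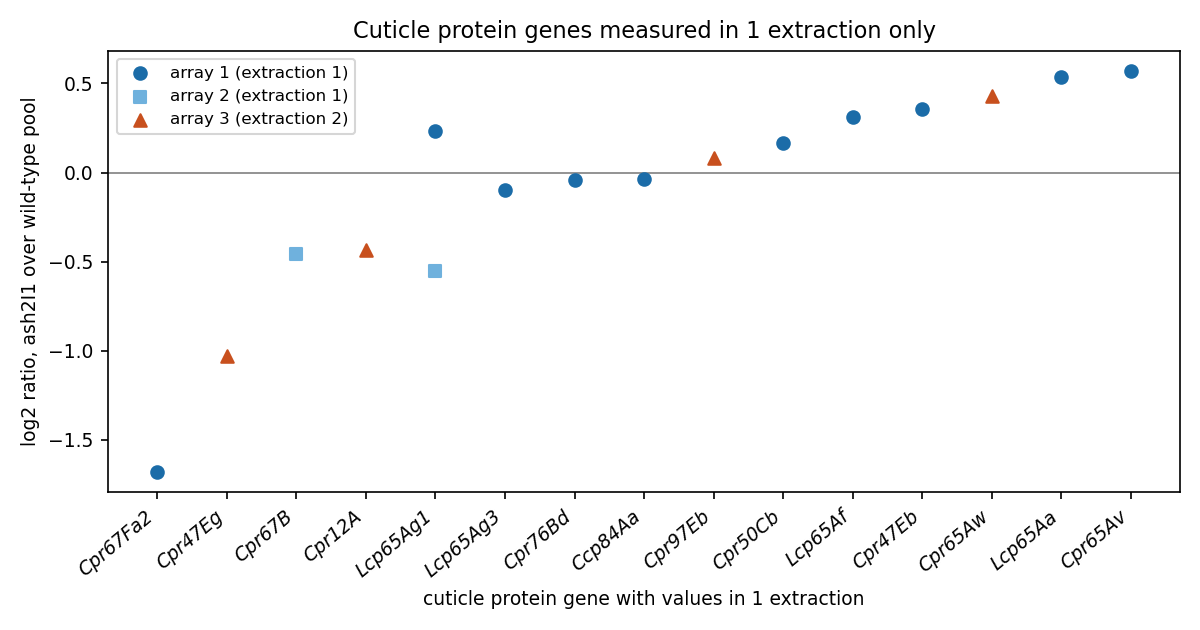
Points give the log2 ratio of ash2I1 larvae over the wild-type pool for the 15 cuticle protein genes measured in 1 extraction only, coloured by array and ordered by their mean. Most lie within 0.6 of 0, and *Cpr67Fa2* (-1.68) and *Cpr47Eg* (-1.03) lie lowest.

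Read by place, the larval cuticle group at 65A on 3L had the most values, with 8 of its 14 genes measured. Their ratios lay between -0.16 and 0.64 with a median of 0.37, and 5 of the 8 were above 0. On single arrays, *Cpr65Av* had 0.57, *Lcp65Aa* 0.54 and *Lcp65Af* 0.31 on array 1, *Cpr65Aw* had 0.43 on array 3, and *Lcp65Ag3* had -0.10 on array 1. The names of *Lcp65Ag1*, *Lcp65Ag2* and *Lcp65Ag3* mark them as copies, so the probe of any of them may also read the others. No measured gene of the 65A group reached a 2-fold change in either direction. Of its 14 genes, 6 had no value and 2 were tested. The other measured genes on the same arm were all below 0, at 67F (-1.68 and -0.69), 78E (-1.67), 67B (-0.46) and 76B (-0.04). None of them was called. The value of -1.68 is from array 1 alone, and the 2 probes at 67F may read the same RNA. The 3 measured genes of the 47E group on 2R, *Cpr47Eb*, *Cpr47Ec* and *Cpr47Eg*, ranged from 0.36 to -1.03. These groups were not compared by a test, since most of their values come from 1 array. *Pcp* was the only cuticle gene with a value on 2L, and *Lcp9* lay 710 annotated protein-coding genes from the next measured member on its arm.

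Chitin is made, ordered and turned over by other proteins, and a list of 42 such genes was followed beside the cuticle proteins. Of these, 36 had a probe and 12 were tested. No gene passed in either direction, 8 of the 12 had a log2 ratio below 0, and the median was -0.25, beside 0.01 over all tested genes. The lowest was *obst-A*, whose product orders chitin in the larval cuticle, with -1.48, -0.78 and -0.44 on arrays 1 to 3 and a mean of -0.79 ± 0.21 (SE, n = 2, adjusted p = 0.0897). Its relative *obst-B* had a mean of -0.55 ± 0.17 (adjusted p = 0.109). On the other side, *mmy*, which codes for the enzyme that makes the activated sugar for chitin, had 0.80, 0.67 and 0.54 on these arrays and a mean of 0.64 ± 0.13 (adjusted p = 0.0591). The chitin deacetylase genes *serp* and *verm*, whose products act on tracheal and epidermal chitin, had -0.04 and 0.26 on array 3 alone. Of the listed genes with a value on 1 array, *obst-G* (0.92) and *Gfat2* (0.70), both on array 1, were highest. The lowest was *Cht5*, with -0.19 on array 3.

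Tanning hardens and darkens the cuticle through products of tyrosine and dopamine. Of 23 genes of this list 3 were tested and 1 of them fell, beside 2.83% of all tested genes. None rose, and the median was -0.64. *yellow-f*, which codes for an enzyme of melanin formation, had -1.45 on array 1 and -0.79 on array 3 and fell 2.18-fold (-1.12 ± 0.20, adjusted p = 0.0497), just past the threshold. *yellow-e* had -0.31 and -0.97 on the same arrays, with a mean of -0.64 ± 0.21 (adjusted p = 0.122), and *yellow-d2* had -0.27 ± 0.14 (adjusted p = 0.243). Of the enzymes of the pathway itself, 4 had a value on a single array each, while *Ddc*, whose product forms dopamine, and *t*, *amd* and *stw* had no value. *ple*, the tyrosine hydroxylase gene, had -2.54 on array 3, and *Pu*, which is needed for its cofactor, had -2.20 there. *e*, which joins dopamine to beta-alanine, had -3.06 on array 1, where *speck*, whose product acetylates dopamine, had 1.42. Each of these values is from 1 array and was not tested. On the same arrays the lowest cuticle genes were of similar size, with -3.09 for *Cpr78E* on array 1 and -2.76 for *Cpr49Ac* on array 3.

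Among other structural genes of the cuticle and the epidermal surface, outside the families above, no tested gene passed. Of 23 listed genes 3 could be tested, and their median was -0.07. *zye*, for a zona pellucida domain protein, had a mean of -0.29 ± 0.19 (adjusted p = 0.328), *pot*, of the same class, -0.07 ± 0.13 (adjusted p = 0.743), and *Vajk3*, a cuticle protein gene, 0.00 ± 0.14 (adjusted p = 0.997).

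Genes of the hormone response and of other tissues are given beside these values, and their part in the cuticle values was not tested. Over all 1660 tested genes, 2.83% were called lower and 3.73% higher. Among regulators of the moulting hormone response 2 of 3 tested genes fell and none rose (median -1.02). *br* had -0.94, -1.38, -0.68 and -1.10 on the 4 arrays, and *Sox14* had -2.15, -1.25 and -1.02 on arrays 1 to 3. The receptor genes were measured less, with -0.76 and -0.62 for *usp* in extraction 1 and -0.30 for *EcR* on array 3, and *Hr3* had a mean of 0.05 ± 0.18. Of 6 tested salivary glue genes, which are read late in the last larval instar, 2 fell and none rose (median -1.41), and of 3 fat body genes 2 fell and none rose (median -1.46). The fallen genes were *Sgs5bis* and *Eig71Ee* of the glue list, with -3.09 ± 0.26 and -2.09 ± 0.14, and *Lsp2* and *Fbp1* of the fat body list, with -2.11 ± 0.15 and -1.46 ± 0.13. The glue list went both ways. *Sgs5* had -2.78 ± 0.63 and did not pass (adjusted p = 0.0660), whereas *ng1* and *ng2* were above 0 without passing, with 0.80 ± 0.26 (adjusted p = 0.120) and 0.80 ± 0.16 (adjusted p = 0.0549), and *ng3* had 1.98 on array 1 alone. None of 7 body wall muscle genes passed in either direction (median 0.09), and *Prm*, which codes for paramyosin, was farthest from 0 with 0.54 ± 0.14 (adjusted p = 0.0875). Among 14 midgut genes 6 rose, namely *Amy-p*, *Amy-d*, *Jon44E*, *alphaTry*, *LysS* and *LysX*, and *Jon66Cii* fell (median 1.10). Probes of related genes in these lists, such as *Amy-p* and *Amy-d*, may read the same RNA, and their sequences were not compared. The midgut genes farthest from 0, *LysD* with 3.45 ± 1.37 (adjusted p = 0.166) and *LysB* with 2.54 ± 0.65 (adjusted p = 0.0849), did not pass. The lists were chosen with earlier results of these data known, so their medians only describe the listed genes. The medians of the cuticle, chitin, tanning, other structural, hormone, glue and fat body lists were below 0. Those of the tanning, other structural, hormone and fat body lists rest on 3 tested genes each. The midgut median was above 0, and the muscle median lay near it, with 3 of 7 genes below 0.

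**Figure D5:**
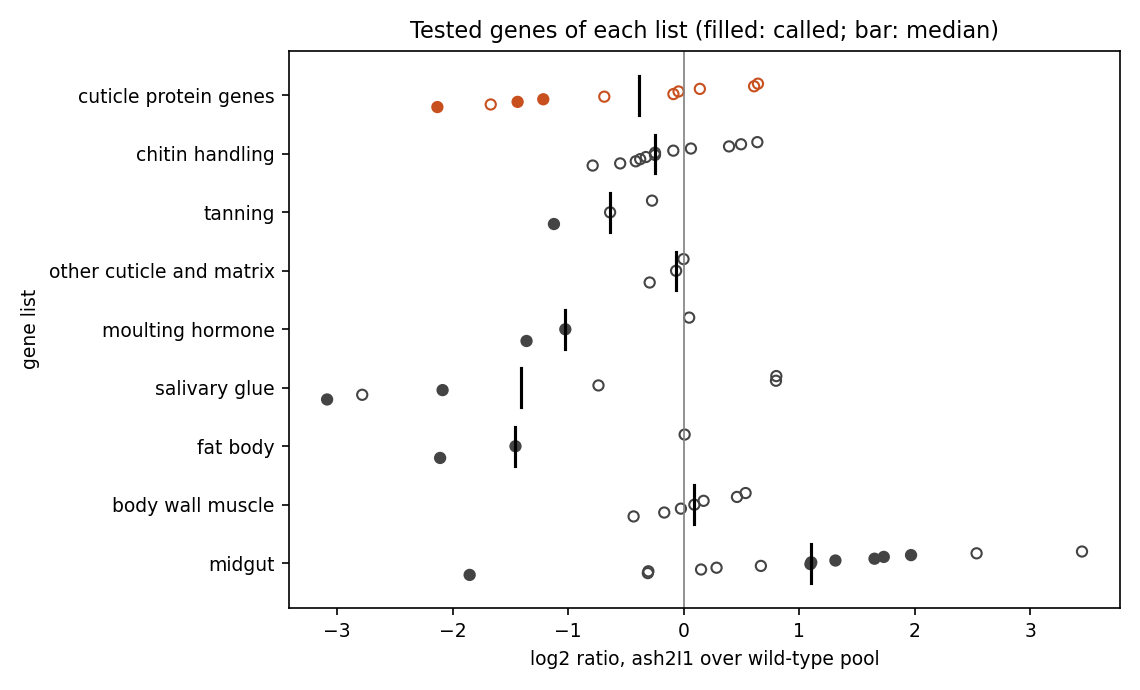
Each circle is the mean log2 ratio of a tested gene of the list named on the left, filled where it was called and open where it did not pass, and black bars give the median of each list. The median of the cuticle protein genes is -0.39, and 3 of the 10 genes are filled. Without array 1, 2, 3 or 4 the median was -1.06, -0.78, -0.91 or -0.44, over 7, 9, 6 or 10 genes. These medians are thus not all of the same genes.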

How the data were processed

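Per the paper's methods, the authors read the arrays with GenePix Pro and dropped poor spots. Background correction was by normexp, and OLIN served for normalisation within arrays and, by median absolute deviation, among the 4 arrays. The version of limma that they used is not given in the sources used here. Deposited values are log ratios, taken here as log2 by the convention of limma, with dropped spots empty. Symbols were updated through the RefSeq gene table of Release 6, for 12533 probes by gene identifier, 120 by accession, 21 by symbol and 453 by synonym, while 37 stayed as annotated. Because its build postdates the arrays, it gave names, arms and gene order but no coordinates. The 101 probes with several genes and 3151 with none did not enter.

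Values were averaged over probes of a gene and then over the arrays of an extraction, which are technical repeats. For 1302 of the 1660 tested genes extraction 2 was array 3 alone, so array and extraction cannot be told apart there. Around the mean of each gene, the correlation that limma estimated between arrays of the same extraction was 0.25. The mean was tested against 0 with limma 3.58.1 in R 4.3.3 across the 1660 genes with a value in both extractions, with eBayes and Benjamini-Hochberg adjustment over all of them, and the fit was tested on simulated data. Alternatives left out each array, changed the averaging of arrays and probes, the scaling, the moderation, the minimum fold and the probes or genes kept. Tables and figures were made with Python 3.11.15, pandas 2.3.3, NumPy 2.4.6 and matplotlib 3.10.9. Every member with a value is named. From each other list the genes that passed are named, with a choice of others that were not always those farthest from 0. Members and lists were chosen with earlier results of these data known. The labels call the extractions biological replicates but name no separate cultures, so p-values speak for these 2 extractions only. They rest on the difference between the extractions and on a variance that eBayes borrowed from all tested genes. A gene had 1 residual degree of freedom of its own, and 4.12 after this moderation. The SEs and intervals share this, and *Cpr57A* had an SE of 0.13 though its extractions differed by 0.009. No sequences of these genes were used here.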

Additional observations from a re-analysis of the deposited data

How the results depend on the processing

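Each of the 10 tested cuticle genes kept the sign of its log2 ratio in each of the 13 alternative fits that could give it a value. In several fits the sign could not change. Robust moderation, 1 probe per gene and unnamed probes kept all used the same extraction means for these genes. *Cpr47Ec* stayed at -0.04 without array 2 or 4, where it had no value, though its extractions differed in sign (0.24 and -0.32). No cuticle gene was called higher in any fit. The number called lower was 3 and ranged from 0 to 4 when each array was left out (0 without array 3, 1 without array 2), and was 1 with arrays scaled to 1 median absolute deviation, where *Cpr49Ac* alone was called and *Pcp* and *Lcp9* had adjusted p of 0.0507 and 0.0537. With 1 probe per gene it was 2. *Cpr78E* was called in 6 of 13 alternatives, with adjusted p from 2.13e-07 to 0.266. The median of the cuticle genes ranged from -1.06 to -0.44 when each array was left out, and was -1.55 over the 4 genes on all arrays, since fewer genes then had a value. Among all tested genes, 109 were called, from 0 to 123 when each array was left out, 49 among genes on all 4 arrays, 63 with scaled arrays, 184 with unnamed probes kept and 167 with no minimum fold. With unnamed probes kept, 69.0% of calls were higher, against 56.9% in the fit reported. With the extraction as a random block the same 3 cuticle genes were called among 129. No paired analysis was possible because there is 1 group. With n = 2 extractions, differences near 2-fold sit close to the limit of what was called.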
